A study of Rattus norvegicus with 372 samples.

Results

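Naproxen at 2000 µM was set directly against naproxen at 80 µM in primary rat hepatocytes, with the 80 µM wells in place of vehicle as the reference. The members are the wells treated with naproxen at either concentration, which are 12 wells of the whole-transcriptome (WT) assay and 12 wells of the surrogate (ST) assay out of 372 samples in the series. They form 3 wells per concentration and batch. Hepatocytes came from male Wistar rats, 1 rat per batch, and were kept between layers of collagen and exposed for 24 h in medium with 0.5% DMSO. That medium held insulin, dexamethasone and EGF, so the naproxen wells and the 9 vehicle wells of the WT assay (3 in batch 1 and 6 in batch 2) shared these as well. Gene expression was read by TempO-Seq, in which a pair of short oligos is ligated on each targeted transcript in the lysate and the ligated pairs are counted by sequencing. The wells of a batch are technical replicates of 1 rat, so a p-value within a batch measures the spread between wells, and biological replication amounts to the 2 rats. In both batches the 2000 µM wells were B08, B10 and C08 and the 80 µM wells were B09, B11 and C09, so well position and concentration cannot be told apart.

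Naproxen is a nonsteroidal anti-inflammatory drug, an arylpropionic acid that blocks the prostaglandin synthases encoded by Ptgs1 and Ptgs2. The liver clears it by oxidative demethylation, in which Cyp1a2 takes part, and by conjugation of its carboxyl group with glucuronic acid. Many carboxylic acids, from fatty acids to fibrate drugs, activate the nuclear receptor PPARα, which in rodent liver switches on the genes of fatty acid oxidation in peroxisomes, microsomes and mitochondria. Cells whose protein folding, amino acid supply or mitochondria are disturbed raise the transcription factor ATF4, which acts on genes such as Ddit3 and Trib3.

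Promoters of 2 genes are shown because they hold a motif linked to PPARα or ATF4, whose target genes are described first. Sequences are those of RefSeq for the GRCr8 assembly, from 250 bases before to 50 after the gene's start, and a script searched both strands for a direct repeat of 2 copies of AGGNCA spaced by 1 base and for a composite C/EBP-ATF element, TGATGNAAN. The direct repeat was found in 139 of 33469 rat promoters (0.415%). Among the 41 genes of the 3 lipid lists (omega-oxidation and peroxisomes, mitochondrial beta-oxidation, lipid droplets) that were higher at 2000 µM, 32 had a promoter in the table and 1 held the repeat, at position -77 of Fabp1, which encodes the liver fatty acid binding protein. The ATF element was found in 1328 of the 33469 promoters (3.97%) and in 2 of the 12 available promoters of 15 higher ATF4-list genes, at position -22 of Trib3 and position -30 of Slc7a1. Trib3 encodes a pseudokinase and Slc7a1 a cationic amino acid transporter. A match describes these letters in this window and is not a measured binding site. The Fabp1 promoter lies at chr4:104749090-104749389 on the plus strand and the Trib3 promoter at chr3:161275484-161275783 on the minus strand, each printed 5′ to 3′ along its gene with the match in capitals, which both stand on the opposite strand.
Fabp1: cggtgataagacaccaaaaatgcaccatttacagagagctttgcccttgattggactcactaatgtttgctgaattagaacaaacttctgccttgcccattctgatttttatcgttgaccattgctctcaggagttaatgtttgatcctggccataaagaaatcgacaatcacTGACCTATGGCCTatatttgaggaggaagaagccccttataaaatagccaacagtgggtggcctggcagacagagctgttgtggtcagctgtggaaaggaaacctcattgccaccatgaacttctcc
Trib3: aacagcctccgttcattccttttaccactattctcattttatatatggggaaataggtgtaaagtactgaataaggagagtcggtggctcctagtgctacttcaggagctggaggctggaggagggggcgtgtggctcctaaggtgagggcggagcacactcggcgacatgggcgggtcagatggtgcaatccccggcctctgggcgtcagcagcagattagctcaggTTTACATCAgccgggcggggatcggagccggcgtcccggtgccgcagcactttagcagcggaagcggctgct

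The naproxen WT wells held 5237188 to 8655622 reads and the ST wells 1128113 to 1937333 reads. In the WT assay the 2000 µM wells were shallower than the 80 µM wells in batch 1 (6413390 to 6853910 against 7550006 to 8655622 reads) and overlapped with them in batch 2 (6573641 to 7427805 against 5237188 to 6826801 reads). Levels are given in CPM, the counts of a probe per 1000000 reads of its well. Pearson's r of log2(CPM + 1) between WT wells of one concentration was 0.983 to 0.993 and between the concentrations of a batch 0.939 to 0.951. The 10 most abundant probes took 15.6 to 16.7% of the reads at 80 µM and 10.0 to 10.6% at 2000 µM in batch 1, and 10.7 to 11.6% and 8.76 to 9.51% in batch 2. The 11 hepatocyte markers were detected in every naproxen group, and their summed level was 39900 to 53300 CPM at 80 µM and 20400 to 22300 CPM at 2000 µM. Markers of Kupffer cells and leukocytes summed to 92.6 to 109 CPM at 80 µM and 52.8 to 56.1 CPM at 2000 µM in batch 1, and to 38.3 to 71 and 23.2 to 33 CPM in batch 2. Stellate cell markers summed to 451 to 462 CPM at 80 µM and 251 to 326 CPM at 2000 µM in batch 1, and to 264 to 323 and 167 to 179 CPM in batch 2. The sums of endothelial and of cholangiocyte markers were lower as well, at 27.5 to 43.7 CPM against 20.3 to 25 CPM and at 255 to 312 CPM against 219 to 248 CPM over both batches. The cholangiocyte markers were mixed. Epcam and Anxa4 had lower means at 2000 µM. Slc4a2 had higher means (122 against 175 CPM in batch 1, 98.3 against 159 CPM in batch 2), as had Sox9 (3.48 against 9.21 CPM and 2.96 against 4.45 CPM). Markers of these other cells were present, with means at 80 µM in batch 1 of 20.3 CPM for Clec4f of Kupffer cells, 183 CPM for Reln and 125 CPM for Col3a1 of stellate cells, 26 CPM for Egfl7 of endothelium and 30 CPM for Epcam of cholangiocytes, while Ptprc, Des, Stab2 and Krt19 were each under 1 CPM on average in every naproxen group. Of the probes for Kupffer cells and leukocytes 2 to 3 of 18 had no count in a naproxen group, and of the stellate probes 3 to 5 of 17, with Ngfr at 0 in each. The same held for 1 to 4 of 15 endothelial probes and 6 to 8 of 15 cholangiocyte probes. Fewer cells of a type and less of these RNAs per cell cannot be told apart in bulk lysates.

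The step from 80 to 2000 µM changed a large part of the transcriptome in the cells of both rats. Changes are given as L2FC, the log2 of the level at 2000 µM over that at 80 µM, and a probe is called where its Benjamini-Hochberg adjusted p from edgeR is under 0.05. Batch 1 had 3818 probes called of 10687 tested (35.7%), 1862 higher and 1956 lower at 2000 µM. Batch 2 had 3949 called of 10687 (37.0%), 1907 higher and 2042 lower. With both batches fitted together, 4967 of 10689 probes were called (46.5%), 2343 higher and 2624 lower. Called in both batches in the same direction were 1275 probes higher (11.9%) and 1424 lower (13.3%) of the 10685 tested in both, and these 2699 made up 70.7% of the calls of batch 1 and 68.3% of those of batch 2. Probes called in opposite directions numbered 10. The changes were larger downward, with a median L2FC of -1.03 over the lower probes and 0.73 over the higher ones, and of -0.01 over all probes. An absolute L2FC of at least 1 in each batch was reached by 305 higher and 587 lower probes, and of at least 2 by 68 and 129. The words "rose" and "fell" are used of probes called in both batches in the same direction, a single L2FC is that of the fit of both batches with its SE, and well values follow the order of the well names.

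**Figure D1:**
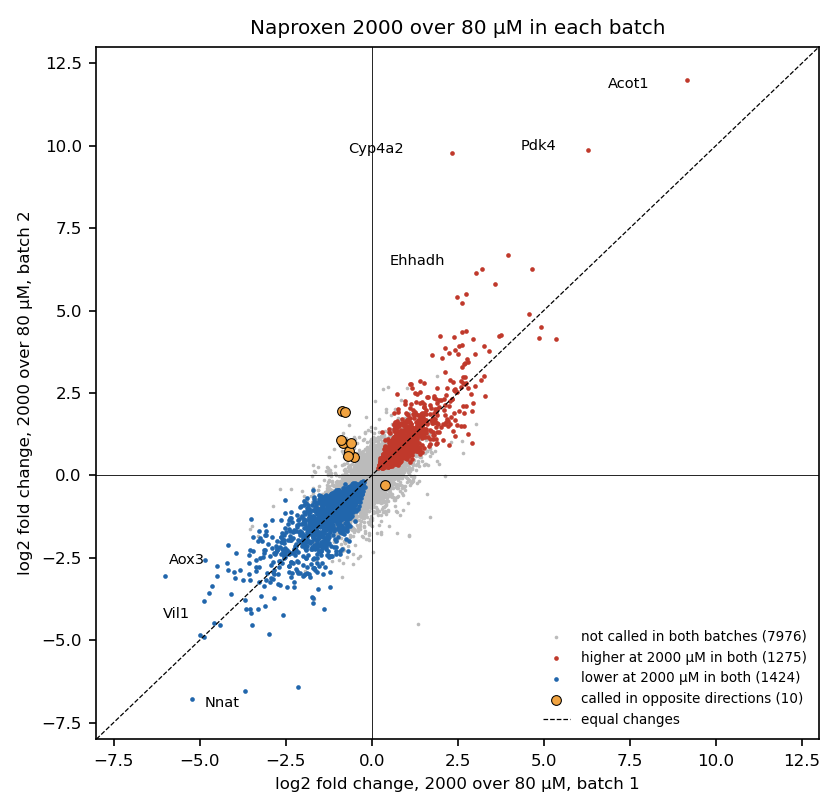
L2FC of 2000 over 80 µM naproxen for the 10685 WT probes tested in both batches, batch 1 on the horizontal and batch 2 on the vertical axis, both log2. Red and blue points are the 1275 higher and 1424 lower probes called in both batches and orange points the 10 called in opposite directions. Fitted values of probes with 0 to 3 counts at one concentration, such as Acot1, Pdk4 and Cyp4a2 in batch 2, depend on the fit and are not bounds.

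Most of these probes went past the vehicle level. Of the 1275 higher probes, the 3 wells at 2000 µM lay above the 3 wells at 80 µM without overlap in both batches in 1206, and above every vehicle well of their batch as well in 951 (74.6%). Of the 1424 lower probes, 1378 did not overlap in either batch and 1090 (76.5%) lay below every vehicle well of their batch. The probes were called on these same naproxen wells, so the lack of overlap adds no support to the calls. No share over all probes was counted beside these numbers. The 80 µM wells stood on both sides of vehicle. Their mean was above the vehicle mean in both batches for 422 of the higher and 597 of the lower probes, and below it in both for 483 and 452.

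Of 22 probes of PPARα target genes of omega-oxidation and peroxisomes, 18 rose (81.8%) and 2 fell, with a median L2FC of 2.27 against -0.01 over all probes. Of 27 probes for mitochondrial beta-oxidation and ketogenesis, 19 rose (70.4% against 11.9% of all probes) and 1 fell (median 1.33). Of 15 probes for lipid droplets and lipid uptake 7 rose (46.7%) and none fell (median 0.76), the other 8 not being called in both batches. The receptor itself, Ppara, was not called in both batches (L2FC -0.31). Genes of these families have close copies whose transcripts the short probes may not always separate, so the paralogs Acot1 and Acot2 and the Cyp4a probes are best read together.

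Acot1, a cytosolic thioesterase that frees fatty acids from coenzyme A, had the highest fitted L2FC in both batches among the higher probes with a mean of at least 5 CPM. In batch 1 its 80 µM wells held 0.264, 0.875 and 0.674 CPM and its 2000 µM wells 335, 322 and 380 CPM, an L2FC of 9.16 ± 0.31 (SE). In batch 2 the 80 µM wells held 1 count in all and the 2000 µM wells 6274, a ratio of 5420 with a 95% counting interval of 973 to 214000. Vehicle wells held at most 0.178 CPM, so the gene was near silent in every group but 2000 µM. Its mitochondrial paralog Acot2 was at 23.3, 22.4 and 18.6 CPM at 80 µM and 296, 283 and 248 CPM at 2000 µM in batch 1, and at 16.9, 13.9 and 19.4 against 332, 345 and 248 CPM in batch 2 (L2FC 3.90 ± 0.19).

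Pdk4, a kinase that shuts pyruvate dehydrogenase and spares glucose, was likewise almost absent at 80 µM. Its wells held 1.05, 0.437 and 0.539 CPM at 80 µM and 49.9, 42.8 and 68.6 CPM at 2000 µM in batch 1. In batch 2 it had 1 count at 80 µM and 1444 at 2000 µM, a ratio of 1250 with a 95% counting interval of 224 to 49300. Cpt1a and Cpt1b, the carnitine palmitoyltransferases that admit fatty acids to mitochondria, rose by L2FC 1.88 and 3.31, and Slc22a5, the carnitine transporter, rose by 2.61 ± 0.13 with batch 1 wells at 29.1, 32.9 and 29.4 CPM against 170, 186 and 184 CPM. Acsl1, which activates long-chain fatty acids, rose by 2.46 and Fabp1 by 3.10. Fgf21, a fasting hormone made by the liver, rose by 1.13. Bdh1, which interconverts the ketone bodies, was the 1 probe of this list that fell, from 58.2, 45.9 and 39.2 to 15.9, 17.3 and 16.1 CPM in batch 1 and from 44.3, 47.6 and 36.2 to 18.9, 14 and 13 CPM in batch 2 (L2FC -1.52 ± 0.19). Etfa and Etfb, which pass electrons from beta-oxidation to the respiratory chain, were not called in both batches (L2FC -0.03 and -0.04).

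In peroxisomes and microsomes the same direction held for most steps. Ehhadh, the peroxisomal bifunctional enzyme, was at 70.6, 73.2 and 79.8 CPM at 80 µM and 617, 672 and 734 CPM at 2000 µM in batch 1. In batch 2 it was at 5.37, 3.36 and 10.3 CPM and at 522, 500 and 438 CPM (L2FC 4.12 ± 0.24 over both batches). Between the batches the 2000 µM levels did not overlap but stood closer than the 80 µM levels, while vehicle wells held 0.708 to 3.01 CPM. The omega-hydroxylases of the Cyp4a family rose on all 4 probes tested, by 3.49 to 3.79. Pex11a, which drives peroxisome division, rose by 2.96 and catalase (Cat) by 0.72. Acox2, the oxidase for branched chains and bile acid side chains, fell from 52.2, 47.5 and 46.5 to 4.6, 4 and 4.47 CPM in batch 1 and from 20.1, 20.9 and 32.2 to 5.43, 4.68 and 4.66 CPM in batch 2 (L2FC -2.90 ± 0.22). Of the probes that WT names Eci2, 1 rose by 1.14 and another fell by 0.65 on the log2 scale, and the ST assay names the falling probe ECI3, a paralog.

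Pnpla2, the lipase that opens lipid droplets, and Hilpda, which inhibits it, rose together. Pnpla2 went from 31.4, 24.6 and 25.1 to 214, 173 and 164 CPM in batch 1 and from 20.3, 27.8 and 30.2 to 337, 325 and 242 CPM in batch 2 (L2FC 3.14 ± 0.18). Hilpda rose by 2.52 ± 0.13, the droplet coat protein Plin2 by 1.77 and G0s2, another lipase inhibitor, by 1.59. The triglyceride synthases Dgat1 and Dgat2 were not called in both batches (L2FC 0.33 and 0.54).

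**Figure D2:**
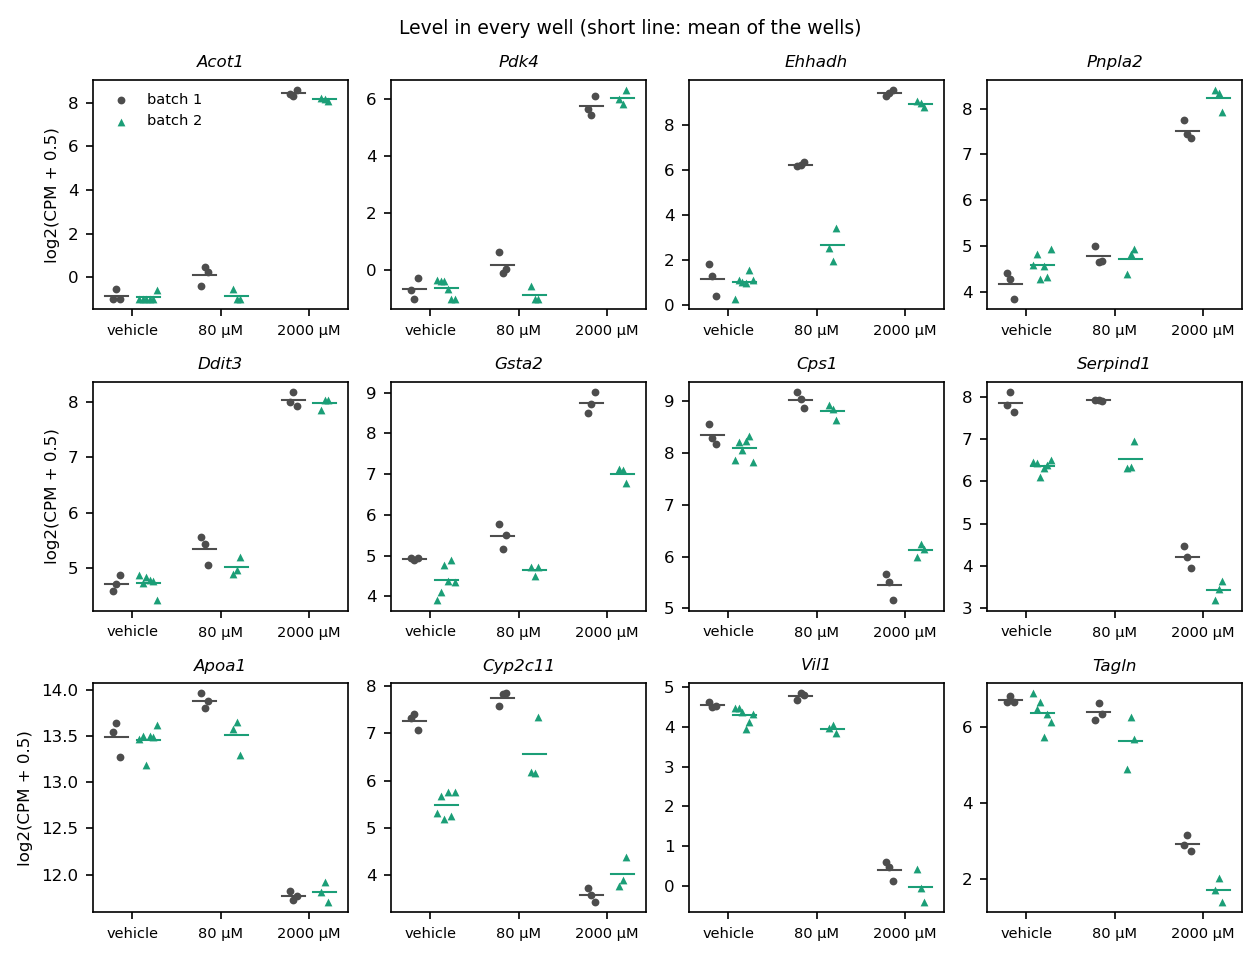
Level of 12 genes in every WT well, as log2(CPM + 0.5), for vehicle, 80 µM and 2000 µM naproxen, with batch 1 as circles, batch 2 as triangles and a short line at the mean of the wells. Acot1, Pdk4, Ehhadh, Pnpla2, Ddit3 and Gsta2 were higher in all 3 wells at 2000 µM than in any at 80 µM in both batches, and Cps1, Serpind1, Apoa1, Cyp2c11, Vil1 and Tagln were lower.

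Of 32 probes of the ATF4 and integrated stress response list, 17 rose (53.1%) and 2 fell (median L2FC 0.68). Ddit3, a transcription factor of the unfolded protein response, was at 47, 43 and 32.6 CPM at 80 µM and 254, 290 and 242 CPM at 2000 µM in batch 1, and at 29.3, 30.8 and 36.2 against 232, 263 and 263 CPM in batch 2 (L2FC 2.81 ± 0.18). Trib3, whose promoter holds the composite element, rose from 76.9, 77.3 and 81 to 337, 361 and 359 CPM and from 42, 42.6 and 50.1 to 293, 288 and 250 CPM (2.38 ± 0.18), its 80 µM wells lying within or just below the vehicle wells (45 to 81.8 CPM). Ppp1r15a, which restores translation, rose by 1.67, and Atf4 itself by 0.68. Among list members chosen after their values were seen, Asns, Phgdh and Mthfd2 were not called in both batches (L2FC 0.17, -0.14 and 0.04), and the serine enzyme Psat1 fell from 505, 496 and 562 to 319, 315 and 286 CPM in batch 1 (-0.64 ± 0.15). Cars, the cysteinyl-tRNA synthetase, fell by 0.39 on the log2 scale while the synthetases Wars and Sars rose by 1.06 and 0.83.

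Of 17 probes of ER chaperones and folding factors, 4 rose (23.5% against 11.9% of all probes) and 3 fell (17.6% against 13.3%). Ern1, a sensor of unfolded protein, rose from 27.7, 22.3 and 32 to 65.9, 59.7 and 64.9 CPM in batch 1 (L2FC 1.19 ± 0.14), and Dnajc3 rose by 0.96 ± 0.12. Edem1, which marks misfolded glycoproteins for disposal, fell from 454, 410 and 376 to 96.1, 109 and 74 CPM in batch 1 and from 323, 316 and 341 to 131, 126 and 121 CPM in batch 2 (-1.76 ± 0.14), and the chaperone Hsp90b1 fell by 0.62. Hspa5, the main ER chaperone, was not called in both batches (0.20). Of 17 probes of cytosolic heat shock proteins, 6 rose (35.3%), among them Hspb1 (1.15 ± 0.15) and Hspa4l (1.12 ± 0.20), and Cryab and Dnajb4 fell (-0.87 and -0.73; 11.8% of the list), while Hspa1a, the strongly inducible member, was not called in both (0.18).

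Of 22 probes of p53 targets 11 rose (50%) and 2 fell (median L2FC 0.67). Gadd45a, a growth arrest gene, rose from 197, 203 and 202 to 624, 533 and 464 CPM in batch 1 and from 136, 175 and 174 to 622, 646 and 516 CPM in batch 2 (1.66 ± 0.15). Gdf15, a secreted stress signal that ATF4 also raises and that stands in both lists, rose by 1.48 ± 0.16, and Mdm2, the ligase that degrades p53, by 1.10. Cdkn1a, the p53-driven inhibitor of the cell cycle, was not called in both batches (0.48), and Perp and the repair factor Xpc fell (-0.96 and -0.64). Of 25 probes of BCL2 family genes and caspases, 3 rose, namely the pro-death Pmaip1 (1.11 ± 0.27) and Bax (0.70 ± 0.12) and the pro-survival Bcl2l1 (0.52), and the pro-death Bak1 fell (-0.55 ± 0.13), a share of 12.0% rising that is close to the 11.9% of all probes.

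Ribosome biogenesis factors rose on 16 of 34 probes (47.1%) and fell on none, 18 not being called in both batches. The rises were small (median L2FC of the list 0.37), led by Rrp12 at 1.22 ± 0.16 and Wdr12 at 1.10 ± 0.19, both needed for processing of precursor ribosomal RNA. Rrp12 held 18.5, 22.2 and 16.9 CPM at 80 µM and 37.9, 46 and 41 CPM at 2000 µM in batch 1, with vehicle between (26.7 to 34.8 CPM). Of 26 probes of the cytosolic ribosomal proteins themselves, Rpl28 and Rps19 rose (0.51 and 0.49), which is 7.69% against 11.9% of all probes. Of 25 proteasome probes 4 rose (16.0%), none by more than Psmd4 (0.52 ± 0.08), and none fell in either list. Both shares changed with the processing, as given below. Of 38 respiratory chain subunits none rose and 7 fell (18.4% against 13.3% of all probes), led by the ATP synthase subunits Atp5f1c (-0.86 ± 0.19) and Atp5f1a (-0.83 ± 0.10).

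Of 20 probes of gluconeogenesis and glucose handling, 6 rose (30.0% against 11.9% of all probes) and 10 fell (50% against 13.3%). G6pc, the phosphatase that releases glucose, rose from 3.83, 3.64 and 3.37 to 31.9, 28.9 and 27 CPM in batch 1 and from 0.383, 0.73 and 0.771 to 47.4, 49.4 and 40.7 CPM in batch 2 (L2FC 4.12 ± 0.31). Pck1, which commits oxaloacetate to glucose synthesis, rose from 11.3, 10.9 and 14.7 to 55.5, 52.9 and 64.2 CPM and from 5.94, 8.47 and 8.32 to 95.3, 113 and 89.9 CPM (2.92 ± 0.24). Igfbp1 and Irs2, both repressed by insulin in liver, rose by 2.72 and 2.04. Tkfc, which phosphorylates the fructose product glyceraldehyde, fell on both its probes (-2.96 ± 0.18 and -2.55 ± 0.27), the former from 109, 113 and 99 to 10.9, 11.4 and 8.51 CPM in batch 1. Khk and the glucose transporter Slc2a2 fell by 1.54 and 1.22 on the log2 scale.

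Of 16 probes for fatty acid synthesis, 4 rose (25.0% against 11.9% of all probes) and 2 fell (12.5% against 13.3%). Pklr, the liver pyruvate kinase, fell from 9.5, 10.9 and 9.57 to 0.718, 0.74 and 1.44 CPM in batch 1 and from 9.2, 5.4 and 7.09 to 0.418, 0.453 and 0.378 CPM in batch 2 (L2FC -3.61 ± 0.32). Thrsp, a lipogenic nuclear protein, fell by 3.06 on the log2 scale in batch 1, from 354, 328 and 278 to 34.2, 38.5 and 40.2 CPM, and by 1.82 in batch 2, and Elovl6 and Scd2, which lengthen and desaturate fatty acids, rose by 3.20 ± 0.33 and 1.08 ± 0.28. Fasn was not called in both batches (0.10) and Scd was called lower in batch 1 and higher in batch 2 (-0.66 and 0.73). Of 20 cholesterol synthesis and SREBP2 targets, 6 fell (30% against 13.3% of all probes), among them Sqle (-0.99 ± 0.19), and 1 rose (5% against 11.9%). The batches differed on this list. Batch 1 called 9 lower and 1 higher, and batch 2 called 6 lower and 5 higher. The median L2FC was -0.37 in batch 1 and 0.11 in batch 2. Insig1, which retains SREBP in the ER, rose from 1931, 1647 and 1508 to 3182, 2997 and 2817 CPM in batch 1 (0.98 ± 0.15).

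Of 25 coagulation probes 19 fell (76.0%) and none rose (median L2FC -1.20), of 42 acute phase and complement probes 28 fell (66.7%) and 1 rose (median -1.13), and of 18 probes of apolipoproteins and lipoprotein enzymes 13 fell (72.2%) and 1 rose (median -1.02). Serpind1, the thrombin inhibitor heparin cofactor II, fell from 246, 246 and 242 to 21.7, 17.9 and 14.8 CPM in batch 1 and from 79.6, 80.3 and 125 to 8.5, 10.4 and 12 CPM in batch 2 (-3.49 ± 0.21). Klkb1, prekallikrein, fell by 2.66, plasminogen (Plg) by 2.51 and prothrombin (F2) by 0.78. Among complement genes, the lectin Mbl2 fell from 149, 146 and 145 to 21.6, 26.2 and 25.4 CPM in batch 1 and from 112, 131 and 120 to 22.4, 26.9 and 22.4 CPM in batch 2 (-2.47 ± 0.11), and C4bpb, a regulator of complement C4, fell by 2.95. Crp, C-reactive protein, was the 1 acute phase probe that rose, from 135, 145 and 134 to 431, 417 and 391 CPM and from 93.8, 109 and 150 to 268, 291 and 505 CPM (1.59 ± 0.23). Apoa1, the main protein of high-density lipoprotein, fell from 15920, 14220 and 15040 to 3623, 3392 and 3490 CPM and from 12220, 12880 and 10010 to 3587, 3876 and 3335 CPM (-1.90 ± 0.13), with vehicle at 9319 to 12790 CPM. Mttp, which loads lipid onto apolipoprotein B, rose instead, from 404, 375 and 369 to 603, 582 and 597 CPM in batch 1 (0.89 ± 0.11).

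Of 37 probes for the urea cycle and amino acid breakdown, 19 fell (51.4%) and 1 rose. Cps1, the entry enzyme of the urea cycle, fell from 579, 526 and 467 to 50.4, 45.2 and 35 CPM in batch 1 and from 486, 460 and 396 to 63.1, 75 and 70.5 CPM in batch 2 (L2FC -3.08 ± 0.19), and its 80 µM wells lay above all vehicle wells (227 to 378 CPM). Otc and Ass1 of the same cycle fell by 2.52 and 1.06 and the methyltransferase Bhmt by 2.58. Tat, which starts tyrosine breakdown and responds to glucocorticoids, rose from 47.1, 51.9 and 52.2 to 74.6, 79.2 and 74 CPM in batch 1 (0.87 ± 0.15). Of 23 probes of liver factors and albumin, 12 fell (52.2% against 13.3% of all probes) and 2 rose (8.7% against 11.9%). Transferrin (Tf) fell from 10340, 11480 and 10770 to 2887, 2938 and 3224 CPM in batch 1 (-1.77 ± 0.14), Asgr2 by 1.55 and albumin (Alb) by 0.79, while Cebpa, a liver transcription factor, rose by 1.21 ± 0.13. Hnf4a, the central factor of the hepatocyte programme, was not called in both batches (0.05). Of the 11 hepatocyte markers, 7 fell (63.6%) and 1 rose (9.09%).

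Cyp1a2 fell from 787, 814 and 737 to 136, 139 and 114 CPM in batch 1 and from 549, 504 and 712 to 155, 153 and 143 CPM in batch 2 (L2FC -2.28 ± 0.22), with vehicle at 425 to 728 CPM. Of 7 probes of CYP1 and AhR targets 3 fell (42.9% against 13.3% of all probes) and none rose. Cyp1a1 fell by 1.07 and Aldh3a1 by 2.38 ± 0.36. Of 14 constitutive CYP2 probes 8 fell (57.1%) and 4 rose (28.6% against 11.9% of all probes). Cyp2c11, the male-specific steroid hydroxylase, fell from 192, 227 and 230 to 12.6, 11.4 and 10.2 CPM in batch 1 and from 72.3, 71.3 and 163 to 13.1, 14.3 and 20.3 CPM in batch 2 (-3.36 ± 0.35), the third 80 µM well of batch 2 lying above the other two. Cyp2d2 fell by 2.61 ± 0.22, and Cyp2e1, which oxidises ethanol and other small molecules, rose from 5.01, 5.25 and 5.12 to 31.2, 38 and 52.3 CPM in batch 1 and from 5.94, 5.7 and 3.08 to 26.1, 31.9 and 36.6 CPM in batch 2 (2.87 ± 0.32). Cyp2j4 rose by 1.94 ± 0.18. Of 11 CAR and PXR targets 3 rose (27.3% against 11.9% of all probes), Cyp2b2 (2.02 ± 0.27), Cyp2b1 (1.42 ± 0.35) and Por (0.68). The receptor PXR itself (Nr1i2) fell (-0.87 ± 0.15), which is 9.09% of the list against 13.3% of all probes.

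Of 18 UGT and sulfotransferase probes 10 fell (55.6%) and none rose, including 2 of 3 probes of Ugt2a3 (L2FC -3.30 ± 0.39 and -2.51 ± 0.39), both of Ugt1a9 (-0.79 and -0.75) and Sult1a1 (-2.09). Of 38 NRF2 and glutathione probes 11 rose (28.9% against 11.9% of all probes) and 5 fell (13.2% against 13.3%). Gsta2, a glutathione transferase, rose from 54.2, 35.1 and 44.9 to 359, 419 and 517 CPM in batch 1 and from 25.9, 22.2 and 25.7 to 139, 136 and 110 CPM in batch 2 (2.91 ± 0.28) and Gsta5 by 2.46 ± 0.30, whereas Gstm2 fell from 369, 379 and 312 to 44.7, 52.9 and 41 CPM in batch 1 (-2.82 ± 0.14) and Gstm3 by 2.76. The classical NRF2 targets Nqo1, Hmox1 and Txnrd1 were not called in both batches (0.48, 0.15 and 0.15). Of 17 transporter probes 4 rose (23.5%) and 5 fell (29.4%). Slc10a1, the bile acid uptake carrier, had 47 counts at 80 µM and 2 at 2000 µM in batch 1, a ratio of 19.1 with a 95% counting interval of 4.99 to 162, and fell from 3.83, 2.77 and 4.01 to 0.418, 0.302 and 0.63 CPM in batch 2. The organic anion carrier Slco1a1 fell by 3.15 ± 0.28, and a probe of an ABC exporter, which WT names Abcb4 and ST names ABCB1A, rose by 2.49 ± 0.32. Of 12 bile acid synthesis probes 4 fell (33.3%), with Hsd3b7 at -0.83 ± 0.16 next to Acox2. Of 8 metallothionein and zinc probes the zinc carrier Slc39a14 fell (-1.25 ± 0.10), which is 12.5% against 13.3% of all probes, and none rose.

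Transcripts of the enzymes that naproxen inhibits were few. Ptgs1 was at 1.98, 2.04 and 2.56 CPM at 80 µM and 1.44, 2.37 and 3.32 CPM at 2000 µM in batch 1 and at 0.617 to 2.11 and 1.14 to 1.39 CPM in batch 2 (L2FC 0.16 ± 0.32, adjusted p = 0.722 by edgeR), a difference that was not called. Ptgs2 held 12 to 16 counts per well at 80 µM and 9 to 17 at 2000 µM in batch 1, and 2 to 6 and 0 to 2 in batch 2, and lay under the minimum of 10 counts on average over all wells of the assay, so it was not tested. In batch 2 its wells were at 0.292 to 1.14 CPM at 80 µM and 0 to 0.285 CPM at 2000 µM, and its counts met at 2. Of 10 tested probes of the prostaglandin pathway 3 rose (30.0% against 11.9% of all probes) and 1 fell (10.0% against 13.3%). Abcc4, which exports prostaglandins, rose by 1.42 ± 0.25, the reductase Cbr1 by 0.65 ± 0.12 and the synthase Ptges2 by 0.46, and Ptgr1, which inactivates prostaglandins and leukotriene B4, fell from 196, 130 and 129 to 55.5, 38.8 and 43.4 CPM in batch 1 and from 526, 462 and 281 to 160, 166 and 108 CPM in batch 2 (-1.63 ± 0.23).

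**Figure D3:**
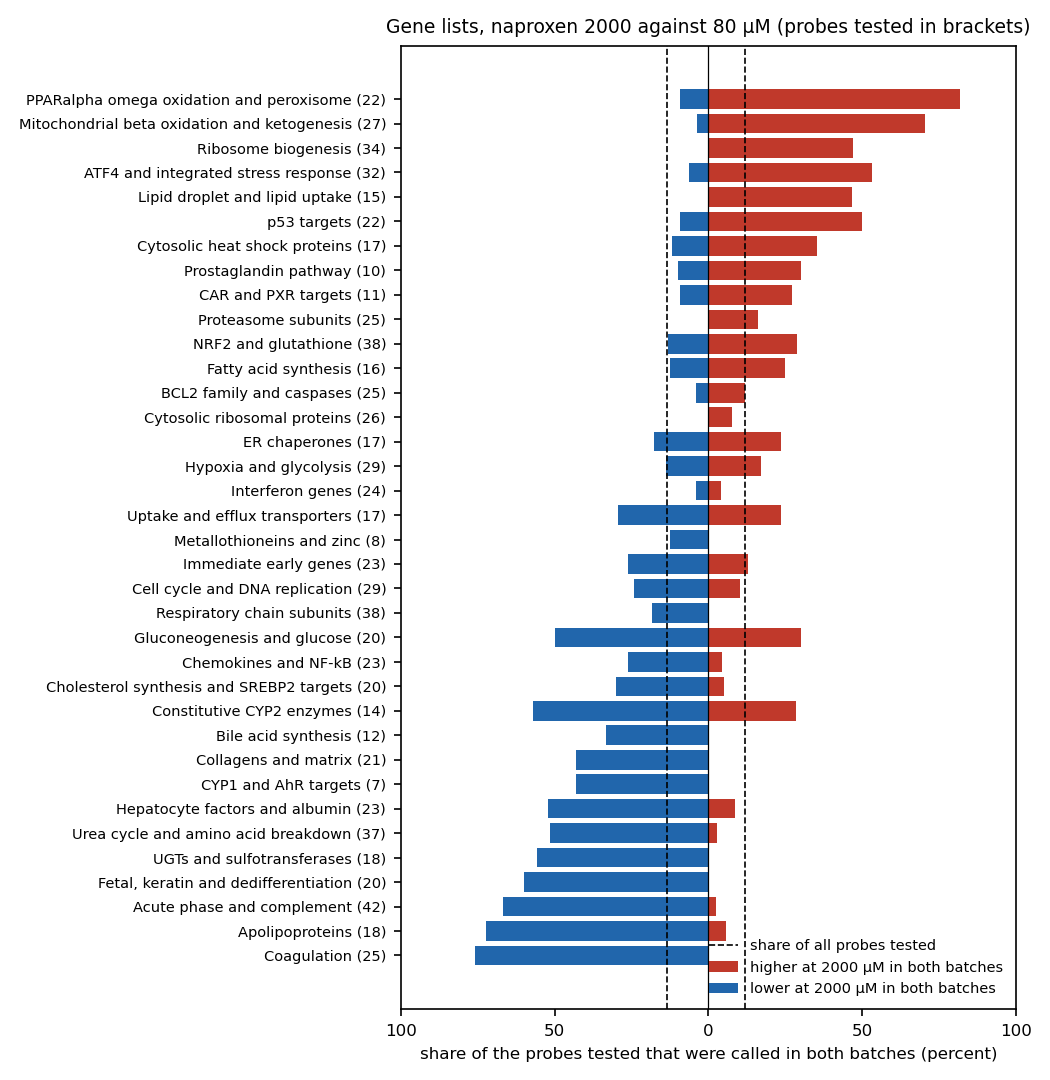
Share of the WT probes tested of each gene list that were called higher (red, to the right) or lower (blue, to the left) at 2000 than at 80 µM naproxen in both batches, in percent, with the number of probes in brackets and the 11.9% and 13.3% of all probes as dashed lines. The bar to the right is longest for PPARα targets (81.8%) and the bar to the left longest for coagulation (76.0%); lists of cell type markers are left out.

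Vil1, villin, which bundles actin in microvilli, fell from 25.3, 28.3 and 27.6 to 1.01, 0.888 and 0.577 CPM in batch 1 and from 15.2, 16.2 and 13.9 to 0.836, 0.453 and 0.252 CPM in batch 2 (L2FC -4.93 ± 0.24). Tagln, an actin-binding protein of contractile cells, fell from 71.6, 97.2 and 80 to 6.9, 8.44 and 6.2 CPM and from 29.3, 76.1 and 50.7 to 2.79, 3.62 and 2.14 CPM (-3.84 ± 0.33), Pdlim2 by 3.89 and the integrin Itgb4 by 3.79. Of 20 probes of fetal, keratin and dedifferentiation genes 12 fell (60% against 13.3% of all probes) and none rose. Epcam, an adhesion molecule of biliary and progenitor cells, fell from 28, 36.6 and 26 to 4.31, 3.26 and 4.9 CPM in batch 1 (-2.87 ± 0.17). The hepatocyte keratins Krt8 and Krt18 fell by 1.66 and 1.73 on the log2 scale. Of 21 collagen and matrix probes 9 fell (42.9%) and none rose, led by Thbs1, thrombospondin (-2.55 ± 0.23), and Timp3 (-2.01 ± 0.33). Tagln is also 1 of the stellate cell markers, of which 3 of 7 tested probes fell (42.9%). The stellate marker Reln was not called in both batches (-0.26). Of 8 Kupffer cell and leukocyte probes 4 fell (50%), with Vsig4 (-1.53 ± 0.32) and Clec4f (-1.44 ± 0.29) leading. Of 3 endothelial probes Egfl7 fell (-0.70 ± 0.11), which is 33.3%. Of 5 cholangiocyte probes Epcam and Anxa4 fell (-1.14 ± 0.13 for Anxa4), which is 40%, and Slc4a2 rose (0.58 ± 0.09), which is 20%. The part of other cell types in the falls of these lists was not tested.

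Rising probes made up 13% of the immediate early genes, 4.35% of the chemokine and NF-kB list, 4.17% of the interferon genes and 10.3% of the cell cycle list, against 11.9% of all probes. The share of the chemokine and NF-kB list changed with the processing, as given below. Of 23 immediate early gene probes 6 fell (26.1% against 13.3% of all probes) and 3 rose. Egr1 fell from 1373, 1434 and 1289 to 365, 381 and 431 CPM in batch 1 (L2FC -1.65 ± 0.23) and Egr2 by 2.87 ± 0.28, and Nr4a2 and Klf4 rose by 2.24 ± 0.34 and 0.68 ± 0.20. Of 23 chemokine and NF-kB probes 6 fell (26.1%) and Icam1, an adhesion receptor, rose (0.76 ± 0.10). The chemokine Ccl2 fell by 1.86 ± 0.43 and the interleukin 1 antagonist Il1rn by 1.51 ± 0.16. Of 24 interferon probes Psmb8 rose (0.47 ± 0.14) and Cd74, of antigen presentation, fell (-1.51 ± 0.23), 4.17% against 13.3% of all probes falling. Of 29 cell cycle and DNA replication probes 7 fell (24.1%), including the mitotic genes Bub1b (-2.61 ± 0.49), Kif20a (-2.53 ± 0.41) and Mki67 (-1.63), and 3 rose, among them Cdk2 (1.11 ± 0.19) and the DNA ligase Lig1 (0.84 ± 0.18). Of 29 hypoxia and glycolysis probes 5 rose (17.2%) and 4 fell (13.8%). Next to Hilpda, the lactate exporter Slc16a3 rose by 1.01 ± 0.22, and Hk1 and Egln3 fell (-1.43 ± 0.32 and -1.25 ± 0.22).

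Several of the largest changes lay outside the lists. Chrna2, a nicotinic receptor subunit, rose from 0.527, 0.146 and 0.405 to 5.17, 6.51 and 6.05 CPM in batch 1, and in batch 2 from 3 to 395 counts, a ratio of 114 with a 95% counting interval of 38.7 to 554. Sema3e, a secreted guidance protein, rose on both its probes, on one from 0.791, 1.02 and 1.48 to 32.9, 37.5 and 30 CPM in batch 1 and from 0.959, 0.584 and 2 to 24.6, 23.7 and 32.1 CPM in batch 2 (L2FC 4.70 ± 0.28). On the other, batch 2 had 3 counts at 80 µM and 299 at 2000 µM (ratio 86.1, 95% counting interval 29.2 to 420). Mmp13, a collagenase, rose from 2.11, 1.75 and 2.02 to 57.5, 58.5 and 55.5 CPM and from 2.88, 1.61 and 1.39 to 33.7, 38.2 and 31.1 CPM (4.62 ± 0.38). Serpine2, a protease inhibitor, rose by 4.52 ± 0.31, and the unnamed loci AABR07072203.1 and LOC103690020 by 4.68 ± 0.30 and 4.01 ± 0.30.

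Among the largest falls, Nnat, neuronatin, went from 19.5, 13.6 and 13.2 to 0.718, 0.444 and 0 CPM in batch 1, and in batch 2 from 225 counts to 2, a ratio of 130 with a 95% counting interval of 35.6 to 1080. Its 80 µM wells were above all vehicle wells (2.67 to 8.57 CPM). The sialyltransferases St8sia1 and St8sia3 fell by 4.50 ± 0.27 and 4.31 ± 0.31 on the log2 scale, the former from 32, 27.1 and 20.1 to 1.15, 1.18 and 1.3 CPM in batch 1 and from 24, 22.2 and 19.7 to 0.975, 0.453 and 1.26 CPM in batch 2. Serpinb1a, an elastase inhibitor, fell by 4.19 ± 0.32, Dpys, an enzyme of pyrimidine breakdown, by 3.75 ± 0.22 and Mcf2l by 3.52 ± 0.34. Aox3, an aldehyde oxidase, fell from 86.9, 64.6 and 51.8 to 1.15, 1.18 and 0.721 CPM in batch 1 and from 20.9, 22.9 and 19 to 3.34, 3.02 and 1.14 CPM in batch 2 (-4.55 ± 0.47), with vehicle at 4.67 to 17.5 CPM.

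A direct test of the difference between the batches called 15 of the 22 PPARα probes. Of 10689 probes, 138 (1.29%) differed between batches in their step from 80 to 2000 µM, 108 with a higher L2FC in batch 2 and 30 with a lower one. They included these 15 PPARα probes and 8 of the 27 beta-oxidation probes, each with the higher L2FC in batch 2. Without the 2000 µM well C08 of batch 1 the 138 calls fell to 87, and 14 and 7 probes of these lists were called. For Ehhadh the difference was 3.08 ± 0.31 (3.20 in batch 1 and 6.27 in batch 2, adjusted p = 1.53e-13 by edgeR). A Cyp4a2 probe went from 1.45, 2.19 and 1.35 to 7.9, 7.11 and 9.95 CPM in batch 1, whereas in batch 2 it had 0 counts in the 80 µM wells against 325 in the 2000 µM wells, at least 93.6-fold higher by a floor of 3 counts over the group. With this probe at its bound the median L2FC of the list in batch 2 was 2.72, as with its fitted value.

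On the PPARα list the batches stood further apart at 80 µM than at 2000 µM. Over the 22 PPARα probes, the median log2 ratio of batch 2 to batch 1 was -0.02 in vehicle, -0.90 at 80 µM and 0.15 at 2000 µM, on means of CPM + 0.5. Against vehicle, the median at 80 µM was 1.65 in batch 1 and 0.87 in batch 2, and at 2000 µM it was 3.50 and 3.29. For the beta-oxidation probes the ratio of batch 2 to batch 1 was -0.08, -0.60 and -0.10 in the same order, and over all probes it was -0.01, 0.01 and 0.01. These ratios describe the wells and were not tested. G6pc had the pattern too, at 3.37 to 3.83 CPM in batch 1 and 0.383 to 0.771 CPM in batch 2 at 80 µM, but its 2000 µM wells also differed (27 to 31.9 against 40.7 to 49.4 CPM). Rat, plate, library construction and sequencing run, which were separate for each batch, cannot be told apart.

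**Figure D4:**
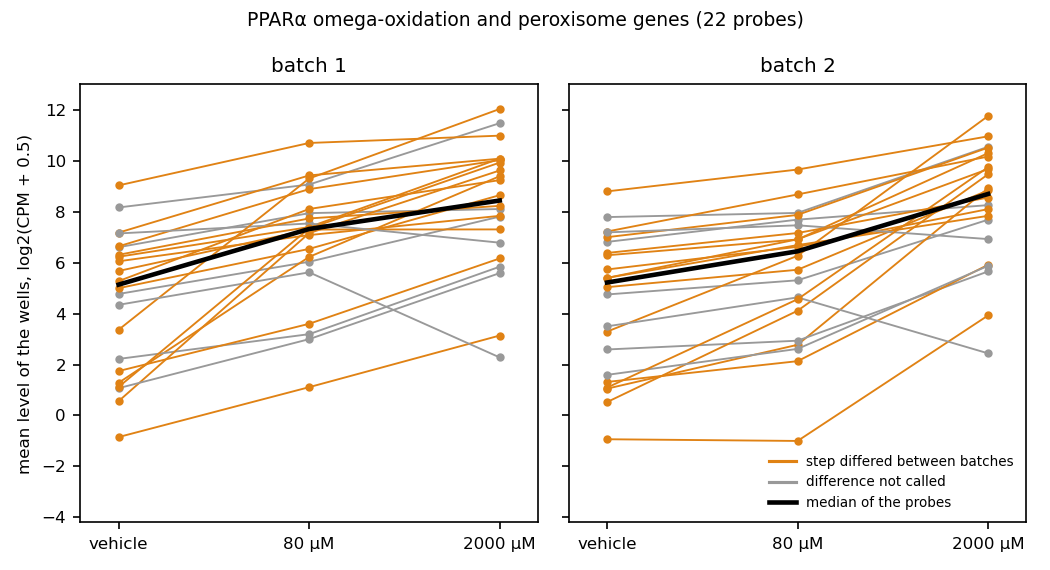
Mean level of each of the 22 PPARα-list probes, as log2(CPM + 0.5), in vehicle, 80 µM and 2000 µM naproxen, with batch 1 on the left and batch 2 on the right. Orange lines are the 15 probes whose L2FC differed between batches, grey lines the others and the black line their median, which stands higher at 80 µM in batch 1 than in batch 2.

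The 10 probes called in opposite directions stood for Akr1d1, Cxcl12 (2 probes), Dbp, Fdps, Mat1a, Scd, Tymp, Xiap and AABR07035374.1. Apart from Xiap they were lower at 2000 µM in batch 1 and higher in batch 2. Cxcl12, a chemokine, went on its scarcer probe from 10.6, 10.1 and 9.31 to 5.03, 4 and 7.07 CPM in batch 1 and from 2.88, 2.77 and 3.08 to 13.1, 12.4 and 8.32 CPM in batch 2 (difference 2.83 ± 0.49, edgeR adjusted p = 3.34e-05). Dbp, a clock-controlled transcription factor, went from 99.4, 108 and 95.2 to 57, 52 and 50.2 CPM and from 28.9, 21.9 and 20.8 to 49.2, 52.1 and 47.5 CPM (1.99 ± 0.23, adjusted p = 5.72e-11), and Tymp, thymidine phosphorylase, from 13.3, 14.6 and 18.6 to 7.18, 7.7 and 10.7 CPM and from 2.49, 3.21 and 4.16 to 8.36, 6.79 and 4.41 CPM (1.82 ± 0.50, adjusted p = 0.0373). In all 3 the batches were close at 2000 µM, or closer than at 80 µM. The reverse sign of difference was rarer. Pparg, the adipose relative of PPARα, rose more in batch 1 (2.81) than in batch 2 (1.26), from 1.58, 2.04 and 1.48 to 9.34, 14.2 and 12 CPM and from 3.07, 5.4 and 2.77 to 8.91, 9.36 and 8.7 CPM. Smpd3, a sphingomyelinase, was at 3.79 to 4.72 against 3.7 to 5.32 CPM in batch 1 and went from 17.1, 14.8 and 19.3 to 2.79, 3.32 and 8.7 CPM in batch 2.

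The ST assay, run on the same lysates with its own, smaller probe set, served as a technical check and not as further animals. It called 780 of 1781 probes in batch 1 (43.8%) and 950 of 1781 in batch 2 (53.3%), and in both batches in the same direction 340 higher (19.1%) and 321 lower (18.0%), with 5 in opposite directions. The difference between batches was called for 82 of 1781 ST probes (4.60%), 69 with a higher L2FC in batch 2 and 13 with a lower one. Of 1481 probes with the same number tested in both assays, 575 were called in both batches by WT. Of these, 575 had the same sign in ST and 462 (80.3%) were also called in both batches in the same direction there. The L2FC of ST was higher by a median of 0.16 over the 1481 probes. Acot1 had an L2FC of 9.85 in WT and 10.0 in ST, Pnpla2 3.14 and 3.21, Ddit3 2.81 and 2.92, Cps1 -3.08 and -2.87, Apoa1 -1.90 and -1.66 and Serpind1 -3.49 and -3.31. In ST, 18 of 21 PPARα-list probes rose and 2 fell, 12 of 22 ATF4-list probes rose and 1 fell, and 16 of 18 coagulation probes fell. Other lists stood further from WT. In ST, 5 of 8 ribosomal protein probes and 4 of 8 proteasome probes rose, against 2 of 26 and 4 of 25 in WT. Falls were called on 4 of 13 ST probes of liver factors, 3 of 13 of collagen and matrix and 1 of 5 of Kupffer cells and leukocytes, against 12 of 23, 9 of 21 and 4 of 8 in WT. Of 5 CYP1 and AhR probes in ST, 1 rose and 1 fell.

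**Figure D5:**
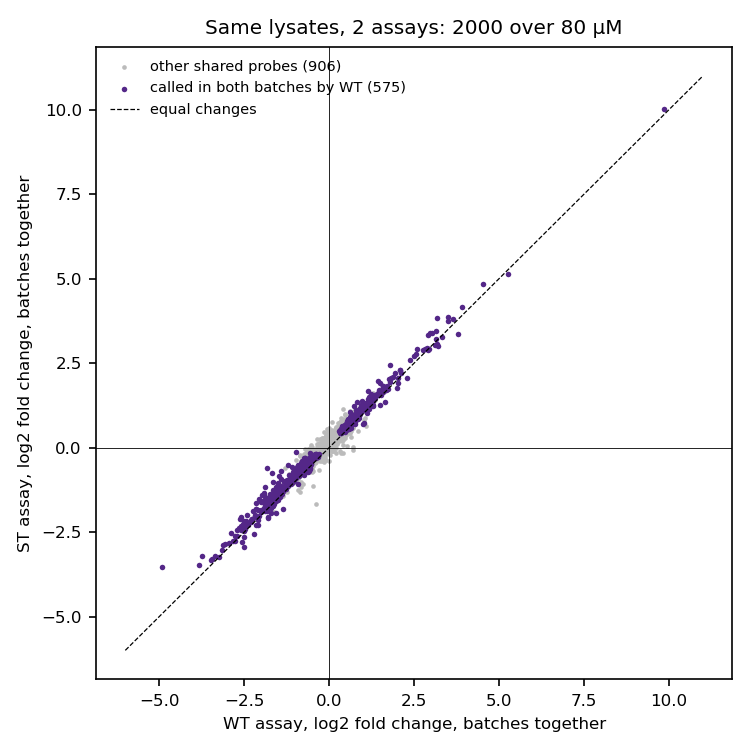
L2FC of 2000 over 80 µM naproxen with both batches fitted together for the 1481 probes tested in both assays, WT on the horizontal and ST on the vertical axis, both log2. The 575 probes called in both batches by WT (purple) have the same sign in ST, and the dashed line marks equal changes.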

How the data were processed

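Lysates of 12 naproxen wells were analysed by each assay. Per the labels, the authors aligned reads with STAR 2.5.3a to the rat build rn6 and deposited raw counts of reads per probe and well, 22253 probes for WT and 2654 for ST. Per the study's methods 2 mismatches were allowed.

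Probes with a mean of at least 10 counts over the 186 wells of an assay entered a quasi-likelihood fit in edgeR 4.0.16 under R 4.3.3 (TMM, Benjamini-Hochberg over all probes). Each batch was fitted by itself with all its treatments as groups, both batches together with batch as a term, and the difference between batches as a contrast of groups. SE is the absolute L2FC divided by the square root of F. Counting intervals are exact at 95% and, like floors of 3 counts, cover counting error only. Scripts were tested on simulated data. Symbols come from the probe names.

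Members and the 41 gene lists were chosen with earlier results of these data known. Named are the 12 probes per direction with the largest absolute L2FC among those called in both batches with a mean of at least 5 CPM, up to 2 per direction and list, Ptgs1, Ptgs2 and Cyp1a2, up to 3 called in opposite directions and up to 4 that differed between batches. Other list members are named after their values were seen, for their role. Alternatives were DESeq2 1.42.0, RLE size factors, no filter, naproxen wells only, thinned wells, an L2FC minimum and each well left out. Some genes that the rule named are not reported here.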

Additional observations from a re-analysis of the deposited data

Results flagged for a closer look

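Of the 136 named probes, 18 differed between the batches by the test of the difference (L2FC of batch 2 minus that of batch 1, edgeR adjusted p under 0.05), and 16 of these differences were positive. Over all probes 138 of 10689 (1.29%) differed, 108 of them with a positive difference. Some probes were named because they differed between batches or were called in opposite directions, so the count of 18 is partly set by the naming rule. Among genes that rose they were 7.32 for a Cyp4a2 probe, whose value depends on the fit because batch 2 had 0 counts at 80 µM, 3.10 for G6pc, 3.08 for Ehhadh, 2.23 for Serpine2, 1.48 for Pck1, 1.46 for Cyp2b2, 1.13 for Cyp2j4 and 0.51 for Mttp. Among genes that fell they were 2.95 for Aox3, 1.57 for Cyp2c11, 1.26 for C4bpb, 1.25 for Thrsp and 0.77 for Edem1, so the fall was smaller in batch 2. For genes called in opposite directions they were 2.83 for the scarcer Cxcl12 probe, 1.99 for Dbp and 1.82 for Tymp. The negative differences were -1.55 for Pparg and -1.89 for Smpd3.

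In the vehicle group of batch 2, the 1 group with over 3 wells, 1 of the 6 wells lay far from the other 5 for 9 probes, and it was not the same well for each. The far values were 4.45 CPM for Abcc4, 0.168 CPM for Acot1, 627 CPM for Bax, 0.142 CPM for a Cyp4a2 probe, 65.9 CPM for Gstm3, 28.2 CPM for Rrp12 and 3.30 CPM for Slc10a1, each the highest, and 50.6 CPM for Gdf15 and 24.6 CPM for Hspb1, each the lowest. Well G09 of plate 3 gave those of Acot1, Gstm3 and Bax, F10 of plate 2 those of Cyp4a2 and Rrp12, G09 of plate 2 those of Abcc4 and Slc10a1, and G08 of plate 3 those of Hspb1 and Gdf15. Chance flags about 1 in 20 groups. Vehicle wells enter the report as background values and in the shared estimate of spread.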

How the results depend on the processing

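The counts of calls of the WT comparisons, and of ST in batch 1, batch 2 and both, stayed within 1.5 times of those reported under RLE size factors, no filter on low counts, DESeq2 and thinning of the naproxen wells to the lowest depth of their batch. A fit of the naproxen wells alone kept the other counts within that range and raised the probes that differed between batches from 138 to 226. Requiring an absolute L2FC of at least 1 as well lowered the WT calls to 1332 in batch 1, 1414 in batch 2, 1341 with the batches together, 892 in both batches and 83 for the difference between batches, and the ST calls to 379, 415 and 296 in batch 1, batch 2 and both. Leaving out 1 naproxen well at a time gave 3213 to 3438 WT calls in batch 1, 3301 to 3685 in batch 2, 2414 to 2550 in both, 4692 to 4980 with the batches together and 87 to 133 for the difference, and 681 to 768, 852 to 900 and 589 to 635 ST calls; for the WT fits over both batches these reused the dispersions of the full fit. The 87 came without the 2000 µM well C08 of batch 1. Of the 2699 WT probes called in both batches, 2671 were so called with DESeq2 and 2592 in the naproxen wells alone, in the same direction.

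Of the 136 named probes, 136 kept direction and side of the threshold under RLE size factors, no filter, DESeq2 and thinning. Dbp, with an L2FC of -0.10 over both batches, turned to 0.0057 in the naproxen wells alone and ranged from -0.25 to 0.11 with 1 well left out, positive (0.07, 0.11 and 0.05) without each 80 µM well of batch 1, and to 1.08 in batch 2 by itself. Tymp (-0.21) ranged from -0.34 to 0.075, positive without the 80 µM well C09 of batch 1, and turned to 0.98 in batch 2. Smpd3 (-0.95) turned to 0.15 in batch 1. The scarcer of the 2 Cxcl12 probes (0.57, not called) turned to -0.87 in batch 1. The more abundant Cxcl12 probe was called with the batches together (0.65, edgeR adjusted p = 0.0097). Without 1 of 5 naproxen wells of batch 1 (all but the 80 µM well C09) the scarcer Cxcl12 probe was called as well, at 0.71 to 0.77 with edgeR adjusted p of 0.0221 to 0.0423. The cause was not tested. Under the settings run the PPARα list kept 18 probes higher and 2 lower under each scaling, and 13 to 17 of its probes differed between batches, each with the higher L2FC in batch 2. Counts of some other lists moved. Under RLE size factors 2 proteasome probes rose in place of 4. In the naproxen wells alone 4 rose and 1 fell. In those wells 5 ribosomal protein probes and 4 chemokine and NF-kB probes rose in place of 2 and 1, next to 1503 of all probes in place of 1275. Of the CAR and PXR targets 2 rose in place of 3, there and with DESeq2. No paired analysis was possible because the labels number no replicates, and batch entered as a term. Each group had 3 wells from 1 rat per batch.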

Other observations

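Genes of the circadian clock were among the probes that differed between the batches. They were listed after these differences had been seen and are therefore given without a test of the list. Of 18 tested probes for 15 clock genes, 10 were called for the difference between batches, 7 with a higher L2FC in batch 2 (3 probes of Nr1d1, 2 of Per3, Nr1d2 and Dbp) and 3 with a lower one (Arntl, Npas2 and Nfil3), against 1.29% of all probes. Nr1d1, a repressor of the clock, was at 106 to 119 CPM in vehicle, 178 to 211 CPM at 80 µM and 160 to 239 CPM at 2000 µM in batch 1 on its most abundant probe, and at 22.2 to 29.4, 20.3 to 34.1 and 72.1 to 80.6 CPM in batch 2. Nr1d2 was at 24.8 to 28.6, 38.4 to 46.2 and 52.3 to 60.3 CPM in batch 1 and at 9.24 to 12.9, 9.71 to 15.7 and 44.5 to 50.4 CPM in batch 2. Arntl, which these repressors act on, was at 37.9 to 45 CPM at 80 µM and 86.1 to 99 CPM at 2000 µM in batch 1 (L2FC 1.18) and was at 56.3 to 67.9 and 62.5 to 73.8 CPM in batch 2 (0.23, not called). Npas2 was at 81.3 to 93 and 74.8 to 97.8 CPM in batch 1 (-0.02, not called) and at 123 to 131 and 46.6 to 53.4 CPM in batch 2 (-1.35). Already in vehicle wells the batches stood apart for Nr1d1, Nr1d2, Npas2 and Arntl.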
